A study of Mus musculus with 4 samples.

Results

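The CXC chemokine ligands are small secreted proteins that attract leukocytes through G protein-coupled receptors, and 9 of them were followed here in the lungs of mice given amiodarone, dabigatran or both. They are Cxcl1, Cxcl2, Cxcl9, Cxcl10, Cxcl12, Cxcl13, Cxcl14, Cxcl15 and Cxcl16, taken by gene symbol, and all 9 are among the 17780 genes of the deposited expression table. The family is divided by the amino acids in front of its first cysteine. Ligands with the motif glutamate-leucine-arginine, such as Cxcl1, Cxcl2 and Cxcl15, are known for drawing neutrophils, and Cxcr1 and Cxcr2 are the neutrophil receptors of the class. Cxcl9 and Cxcl10 lack the motif, are induced by interferons and attract activated T cells and NK cells through Cxcr3. Cxcl13 is the ligand of Cxcr5 and places B cells in follicles. Cxcl12, Cxcl14 and Cxcl16 are made in healthy tissue, the first as the ligand of Cxcr4 and Ackr3 and the last as a membrane-bound ligand of Cxcr6.

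The study asked whether the thrombin inhibitor dabigatran alters the lung toxicity of the antiarrhythmic amiodarone. Each group was represented by 1 library of poly(A)+ RNA from the lung of male C57BL/6 mice (C57BL/6J in the methods of the study), and whether a library pools animals is not stated, so effects of treatment and differences between animals cannot be told apart. The vehicle group received carboxymethylcellulose alone, the amiodarone group amiodarone, the dabigatran group the oral prodrug of dabigatran, and the amiodarone + dabigatran group, here also the combination, both, each suspended in carboxymethylcellulose, by mouth on weekdays, for 28 days by the labels, while the methods date lung collection slightly earlier. Total estimated reads ran from 17498486 to 18903401 per library. The lung identity of the tissue was clear from the surfactant gene Sftpc, at 19587 to 20385 FPKM (fragments scaled by transcript length and by the total reads of the library) in the 4 libraries. Levels below are FPKM, and ratios are of estimated reads divided by the total of each library. Each ratio is followed by its exact 95% interval, which covers counting error only. A gene is called higher or lower where the ratio was at least 1.5-fold and the interval excluded 1, and calls were made for the 14761 genes whose reads averaged 10 or more in the 4 libraries. Of the 9 ligands 8 met that mean, and Cxcl2, with a mean of 4 reads, did not. Cxcl1, with 19 reads under amiodarone and 9 in each other library, met it only through the amiodarone library. The comparisons of amiodarone with vehicle and of amiodarone + dabigatran with amiodarone share the amiodarone library, so a high value in that library raises the first ratio and lowers the second.

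Cxcl15 was by far the most abundant ligand in every library. It took between 68.0% and 70.1% of all reads on the 9 genes, and Cxcl12, Cxcl14 and Cxcl16 together took between 29.3% and 31.5%. The remaining 5 ligands, Cxcl1, Cxcl2, Cxcl9, Cxcl10 and Cxcl13, held 78 reads in vehicle lung, 255 under amiodarone, 150 under dabigatran and 208 under both. The order of FPKM in the vehicle library was Cxcl15, Cxcl14, Cxcl12, Cxcl16, Cxcl13, Cxcl10, Cxcl1, Cxcl2 and Cxcl9. From Cxcl13 downwards the counting intervals of neighbours overlapped, so neighbours in that stretch were not resolved at this depth, although Cxcl13 lay clear of Cxcl1, Cxcl2 and Cxcl9. With amiodarone Cxcl10 came before Cxcl13, and Cxcl9 before Cxcl1 and Cxcl2, while the intervals of Cxcl14 and Cxcl12 overlapped, as did those of Cxcl9 and Cxcl1 and of Cxcl1 and Cxcl2. In both libraries with dabigatran the lower 5 ran in the order Cxcl13, Cxcl10, Cxcl1, Cxcl9 and Cxcl2, and overlap was limited to neighbours among the last 3.

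**Figure D1:**
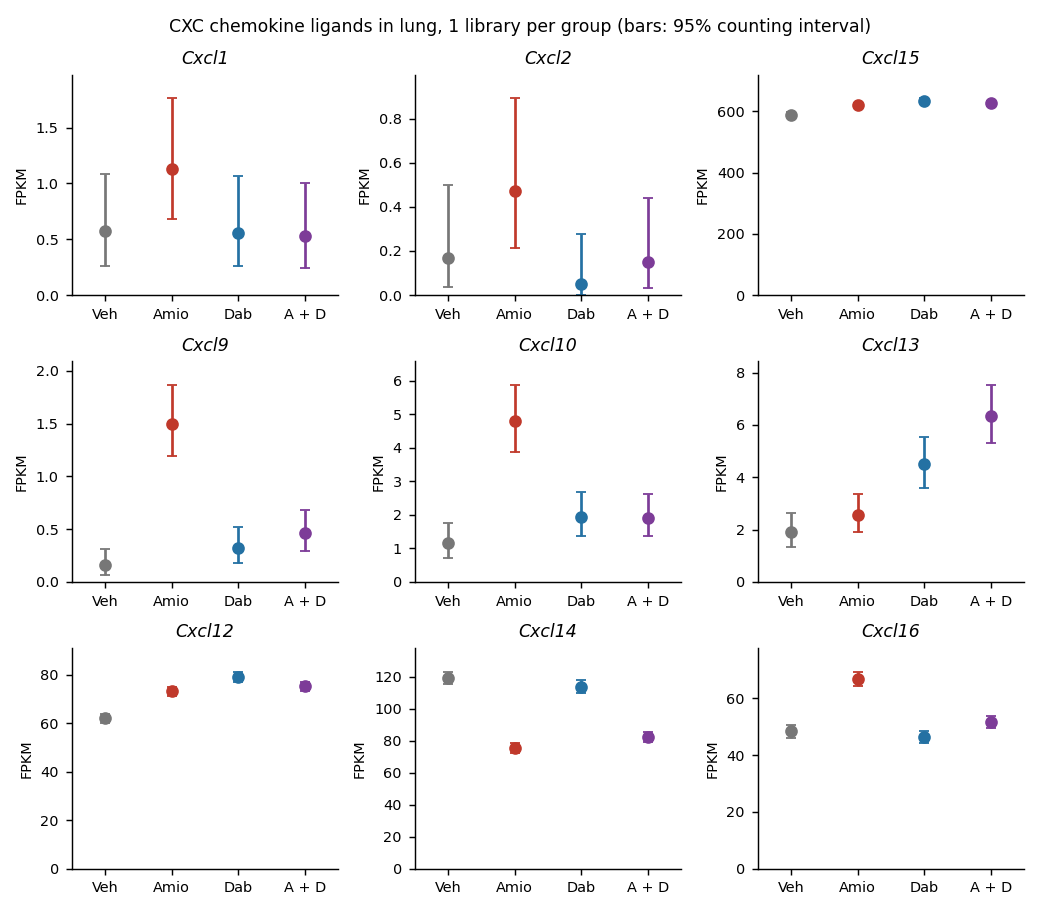
FPKM of each CXC ligand in the vehicle (Veh), amiodarone (Amio), dabigatran (Dab) and amiodarone + dabigatran (A + D) libraries, with each axis from 0. Points are single libraries and bars are 95% Poisson counting intervals. Cxcl9 and Cxcl10 were highest with amiodarone, at 1.5 and 4.80 FPKM, and Cxcl13 was highest with the combination, at 6.35 FPKM.

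Against vehicle, 2 of the 8 tested ligands were called higher with amiodarone, Cxcl9 and Cxcl10, where 5.22% of all tested genes were. Cxcl14 was the 1 ligand called lower, where 7.34% of all tested genes were. With dabigatran alone Cxcl13 was called higher, against a background of 1.47%, and no ligand was called lower, against 1.35%. From amiodarone to amiodarone + dabigatran, Cxcl9 and Cxcl10 were called lower, against 2.04% of all genes, and Cxcl13 was called higher, against 2.56%. Between amiodarone + dabigatran and dabigatran none of the 8 was called in either direction, where 4.33% of all genes were higher and 4.83% lower. Over the 8 ligands, with Cxcl1 among them only through its amiodarone reads, the median log2 ratio of amiodarone to vehicle was 0.47. Over all tested genes the median was -0.06. Taken over all 9 it was 0.52, with 8 ratios above 1. The median over the 8 was 0.26 for dabigatran against vehicle, -0.20 for the combination against amiodarone and -0.02 for the combination against dabigatran, beside 0.00, 0.04 and -0.02 over all tested genes. The 4 ligands Cxcl1, Cxcl12, Cxcl15 and Cxcl16 were called in no comparison.

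**Figure D2:**
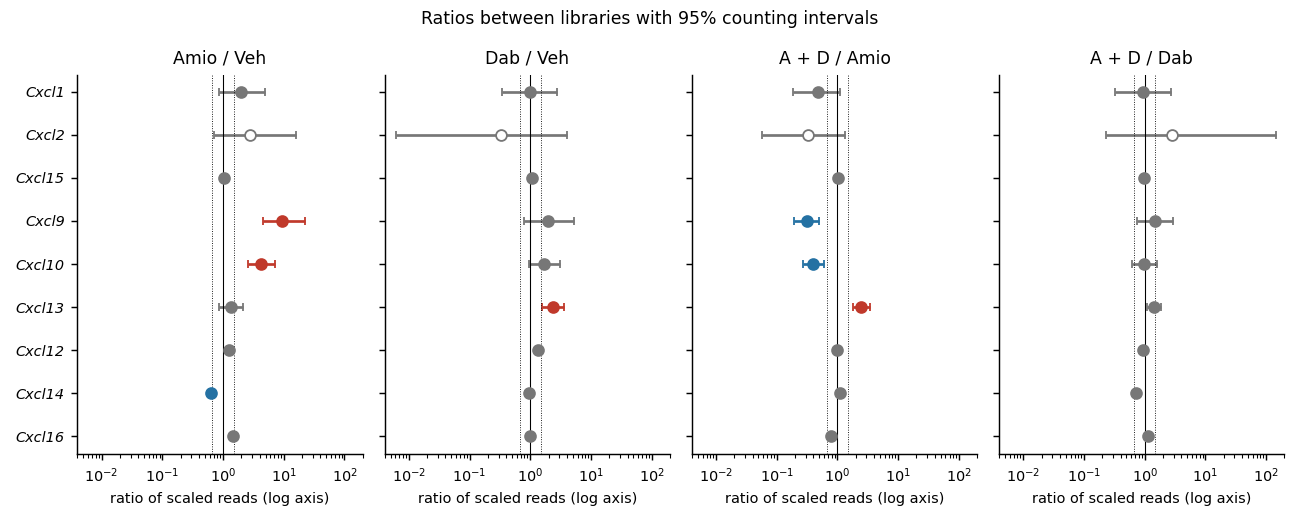
Ratio of scaled reads of each ligand in the 4 comparisons, on a log axis, with exact 95% counting intervals and dotted lines at 1.5-fold in either direction. Red and blue points were called higher and lower, grey points were not called, and the open points of Cxcl2 were not tested. Cxcl9 and Cxcl10 lie right of 1 for amiodarone over vehicle, at 9.34 and 4.18, and left of it for the combination over amiodarone.

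The interferon-inducible pair Cxcl9 and Cxcl10 had the largest differences with amiodarone among the tested ligands. Cxcl9 (gene ID 17329, chr5:92321331-92328079 of GRCm38.p6) had 0.16 FPKM from 8 reads in vehicle lung, 1.5 FPKM from 80 reads under amiodarone, 0.32 FPKM from 16 reads under dabigatran and 0.46 FPKM from 25 reads under both. The amiodarone library stood above the other 3 without overlap of the counting intervals. Its ratio was 9.34 (4.52 to 22.4) to vehicle, and the ratio of the combination to amiodarone was 0.310 (0.189 to 0.490). The combination remained above vehicle, at a ratio of 2.89 (1.26 to 7.42). Dabigatran against vehicle gave 1.97 (0.796 to 5.32), within counting error. Cxcl10 (gene ID 15945, chr5:92346638-92348889), its neighbour on the same strand, had 1.15, 4.80, 1.94 and 1.92 FPKM in the same order of libraries, from 21, 94, 36 and 38 reads. Here too the amiodarone library stood apart from the other 3, whose intervals overlapped. The ratio of amiodarone to vehicle was 4.18 (2.59 to 7.07), and that of the combination to amiodarone was 0.400 (0.267 to 0.590). The combination and dabigatran libraries were at a ratio of 0.991 (0.612 to 1.61).

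The ratio between libraries with and without amiodarone can be set side by side in the absence and presence of dabigatran, in pairs that share no library. The first pair holds the same high amiodarone library as the ratios above, so it adds no separate observation. For Cxcl9 the ratio was 9.34 without and 1.47 (0.753 to 2.94) with dabigatran, and the ratio of these ratios was 0.157 (0.0601 to 0.410). For Cxcl10 it was 4.18 without and 0.991 with dabigatran, with a ratio of ratios of 0.237 (0.123 to 0.457). Both intervals lay below 1, and they cover counting error between 4 libraries and not the spread between animals.

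The promoter sequences of this pair and of the neutrophil attractants Cxcl1 and Cxcl2 are shown because their regulation by interferon and NF-kB is well known. RefSeq windows for GRCm38.p6 were matched for 8 of the 9 ligands and run from 250 bases before to 50 bases after the start of transcription, and Cxcl16 had no entry. Motif cores were searched on both strands: GAAA, any 2 bases and GAAA for the interferon-stimulated response element, TTC, any 3 bases and GAA for the gamma-activated site, and GGGA, any 2 bases and TTCC for NF-kB. Of 32851 windows 3.44% held the first, 8.30% the second and 1.47% the third. The 250 bases before the start are printed 5′ to 3′ on the strand of the gene, with matches in capitals. Cxcl9 lies on the minus strand at chr5:92328080-92328329, Cxcl10 on the minus strand at chr5:92348890-92349139, Cxcl1 on the plus strand at chr5:90890995-90891244 and Cxcl2 on the plus strand at chr5:90903649-90903898.
Cxcl9: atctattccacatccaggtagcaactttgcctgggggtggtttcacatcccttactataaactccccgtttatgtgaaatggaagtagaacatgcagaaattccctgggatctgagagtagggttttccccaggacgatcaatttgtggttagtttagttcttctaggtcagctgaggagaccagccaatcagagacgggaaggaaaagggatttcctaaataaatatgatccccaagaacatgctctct
Cxcl10: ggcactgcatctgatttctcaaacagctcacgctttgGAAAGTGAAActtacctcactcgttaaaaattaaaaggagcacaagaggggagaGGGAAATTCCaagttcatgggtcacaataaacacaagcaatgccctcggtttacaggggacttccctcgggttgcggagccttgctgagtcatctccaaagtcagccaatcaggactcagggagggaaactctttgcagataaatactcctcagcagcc
Cxcl1: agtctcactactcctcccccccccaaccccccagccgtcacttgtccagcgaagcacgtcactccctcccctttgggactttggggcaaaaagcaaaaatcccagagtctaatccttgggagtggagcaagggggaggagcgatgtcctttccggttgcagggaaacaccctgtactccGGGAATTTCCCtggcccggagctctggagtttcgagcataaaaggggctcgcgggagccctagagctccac
Cxcl2: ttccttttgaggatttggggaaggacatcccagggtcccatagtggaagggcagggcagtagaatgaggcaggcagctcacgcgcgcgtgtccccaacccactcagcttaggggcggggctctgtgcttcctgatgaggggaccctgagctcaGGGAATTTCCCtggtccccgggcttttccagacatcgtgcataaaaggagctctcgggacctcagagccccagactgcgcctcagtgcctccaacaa
The Cxcl10 window held the response element core from base -213 to -204 and the NF-kB core from -159 to -150, counted back from the start site. The Cxcl9 window held none of the 3, which says only that these letters are not in it. The Cxcl1 and Cxcl2 windows each held the NF-kB core on the plus strand, at -71 to -62 and -97 to -88, and on the minus strand 1 base further on, so that the matches overlap in the same run of capitals. Of the other ligands with a window, Cxcl14 held a response element core and a gamma-activated core, and Cxcl12, Cxcl13 and Cxcl15 held none of the 3.

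Cxcr3, the receptor of Cxcl9 and Cxcl10, had 1.73 FPKM in vehicle lung, 3.78 under amiodarone, 2.90 under dabigatran and 2.92 under both. It was called higher with amiodarone, at a ratio of 2.19 (1.54 to 3.15), and with dabigatran, at 1.68 (1.16 to 2.46). From amiodarone to the combination Cxcr3 was not called. Among genes of interferon signalling, Stat2 and Irf9, transcription factors of the type I interferon response, were called higher with amiodarone. Stat2 had 11.3, 30.3, 12.5 and 16.6 FPKM in the same order of libraries, a ratio of 2.70 (2.49 to 2.92) for amiodarone to vehicle and of 0.550 (0.515 to 0.588) for the combination to amiodarone. Irf9 had 22.8, 51.1, 27.3 and 31.9 FPKM, with ratios of 2.23 (2.06 to 2.41) and 0.628 (0.587 to 0.671). Both were called lower in the combination than with amiodarone, and neither was called with dabigatran alone. Ifng, the gene of interferon gamma, had between 2 and 9 reads per library and was not tested, and none of the interferon receptor genes Ifngr1, Ifngr2, Ifnar1 and Ifnar2 was called with amiodarone. Markers of T and NK cells, the cells that carry Cxcr3, summed to 57.1 FPKM in vehicle lung, 68.6 under amiodarone, 90.5 under dabigatran and 79.2 under both over 7 of 8 genes in the table. Gzma and Nkg7, genes of cytotoxic cells, gave most of that sum, and the markers did not move together. With dabigatran alone these were the 2 called higher, from 24.6 to 44.8 FPKM for Gzma and from 15.0 to 27.1 FPKM for Nkg7. Cd4 had 3.16, 4.58, 2.86 and 2.94 FPKM and was the 1 gene of the list called lower from amiodarone to the combination, and Cd8a was the 1 called lower with amiodarone. The part of these cells in the Cxcl9 and Cxcl10 values was not tested. In whole lung, more cells of a type and more RNA per cell cannot be told apart.

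Among the ligands with the glutamate-leucine-arginine motif, the abundant Cxcl15 and the rare Cxcl1 and Cxcl2 had different profiles. Cxcl15 (gene ID 20309, chr5:90794534-90803067), also called lungkine and made by lung epithelium, had 589.6 FPKM in vehicle lung, 621 under amiodarone, 635 under dabigatran and 626 under both. The vehicle library was lowest, and its interval did not overlap with those of the others. The differences were small, with ratios to vehicle of 1.05 (1.03 to 1.07), 1.08 (1.06 to 1.10) and 1.06 (1.04 to 1.08). Alveolar epithelium markers, all 7 of them detected and none called with amiodarone, summed to between 27444 and 29419 FPKM. Sftpc gave at least 68.9% of that sum in every library. The other 6 summed to 7857, 8859, 7568 and 9034 FPKM in the same order of libraries, higher in both with amiodarone. Cxcl1 (gene ID 14825, chr5:90891245-90893121), the mouse KC chemokine, had 9 reads in vehicle lung, 19 under amiodarone, 9 under dabigatran and 9 under both, which are 0.57, 1.13, 0.56 and 0.53 FPKM. The amiodarone library was highest, and its interval overlapped with those of the other 3. The ratio to vehicle of 1.97 (0.851 to 4.95) lay within counting error. Cxcl2 (gene ID 20310, chr5:90903899-90905938), also known as MIP-2, had 3, 9, 1 and 3 reads in that order. Its amiodarone ratio of 2.80 had a counting interval from 0.70 to 16.1, so no difference was detectable at this depth.

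Cxcr1 and Cxcr2, the neutrophil receptors of this class of ligands, had larger ratios with amiodarone than Cxcl1, Cxcl2 and Cxcl15 had. The ratio of Cxcr2 lay inside the wide counting intervals of Cxcl1 and Cxcl2. Cxcr1 had 0.37 FPKM in vehicle lung, 12.7 under amiodarone, 0.85 under dabigatran and 15.6 under both, a ratio of amiodarone to vehicle of 35.8 (17.1 to 89.8). Cxcr2 had 2.62, 12.8, 2.33 and 10.02 FPKM, a ratio of 4.87 (4.06 to 5.90), from reads that were estimated in part. Both amiodarone-treated libraries were above both others. From amiodarone to the combination neither receptor was called, with ratios of 1.22 (1.04 to 1.44) for Cxcr1 and 0.786 (0.702 to 0.878) for Cxcr2. Of the neutrophil marker list, not all genes were higher in the same libraries. Ly6g reached the minimum of reads only through the libraries with amiodarone. Of the other 6 tested genes 4 were called higher with amiodarone, S100a8 at 6.32, S100a9 at 6.14, Mmp8 at 6.16 and Retnlg at 11.9. Ltf and Ngp were not called, at 1.15 and 0.807, and Camp, with 2 to 6 reads, was not tested. Ltf had 24.4, 28.2, 33.2 and 15.2 FPKM, lowest in the combination. Vehicle lung had 0.21 FPKM of Camp and 1.14 of Ngp, and which cells gave the Ltf reads was not tested. From amiodarone to the combination 2 of the 7 tested markers, Ltf and Retnlg, were called lower and none higher. Retnlg had 109.5 FPKM with amiodarone and 63.5 with the combination. All 8 summed to 104 FPKM in vehicle lung, 567 under amiodarone, 93.0 under dabigatran and 396 under both, and none was at 0. Their part in the receptor values was not tested. Of 15 genes of NF-kB signalling 13 were tested, and 2 were called higher with amiodarone and none lower. They were Il1b, the cytokine interleukin-1 beta, at 2.77 (2.24 to 3.45), and Tnfaip3, an inhibitor of NF-kB, at 1.52 (1.35 to 1.71). From amiodarone to the combination none of the 13 was called.

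The other CXC ligands outside the 9 lie in part in the same gene cluster. Cxcl5, Ppbp, Pf4 and Cxcl3 precede Cxcl15, Cxcl1 and Cxcl2 on chromosome 5, with gaps of 2.37 to 88.2 kb between neighbouring CXC ligands. Cxcl9 and Cxcl10 lie 1415 kb further on, 18.6 kb apart, and Cxcl13 lies beyond them. Cxcl3 had 0 reads with vehicle and with dabigatran, which allows up to 3 reads, 2 with amiodarone and 1 with the combination, and Cxcl5 had between 2 and 9 reads, so neither was tested. Ppbp and Pf4, chemokines stored in platelets, were called lower with amiodarone. Ppbp had 31.8, 17.1, 40.3 and 52.4 FPKM with vehicle, amiodarone, dabigatran and the combination, a ratio of 0.538 (0.469 to 0.618) for amiodarone to vehicle and of 3.07 (2.70 to 3.48) for the combination to amiodarone. Pf4 had 28.2, 17.7, 22.6 and 28.4 FPKM, with ratios of 0.628 (0.516 to 0.763) and 1.60 (1.32 to 1.95). Over the 5 platelet markers, Ppbp and Pf4 included, the sum was 81.4, 49.2, 87.3 and 116 FPKM in the same order. All 5 were called higher from amiodarone to the combination. Cxcl17, a mucosal chemokine on chromosome 7, had between 87.0 and 108 FPKM and was called in no comparison. Cxcl11 was not in the deposited expression table, so it was not analysed here. Of the 9 receptors 8 were tested, and with amiodarone 4 were called higher (Cxcr1, Cxcr2, Cxcr3 and Ackr3) and 2 lower (Cxcr5 and Ackr4), with a median log2 ratio of 0.30. Ackr4, a scavenging receptor known chiefly for CC chemokines, had 5.09, 1.48, 4.47 and 2.31 FPKM in the same order of libraries, a ratio of 0.295 (0.216 to 0.397) for amiodarone to vehicle.

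**Figure D3:**
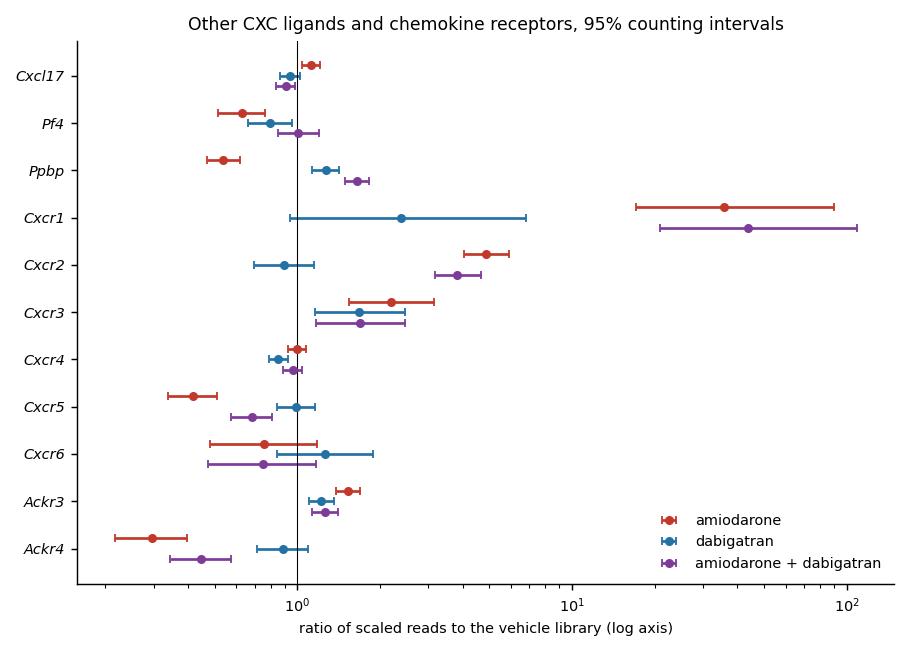
Ratio of scaled reads to the vehicle library for 3 other CXC ligands and 8 chemokine receptors, on a log axis, with exact 95% counting intervals and colours for the 3 treated libraries. Cxcr1 and Cxcr2 lie far right of 1 in both libraries with amiodarone, Cxcr5 and Ackr4 lie left of it in both, and Ppbp lies left of it with amiodarone and right of it in the other libraries.

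Cxcl13 was the 1 ligand called higher in both comparisons that add dabigatran. Cxcl13 (gene ID 55985, chr5:95956939-95961068) had 37 reads in vehicle lung, 53 under amiodarone, 88 under dabigatran and 133 under both, which are 1.91, 2.56, 4.49 and 6.35 FPKM. Both libraries with dabigatran were above both without it, and the intervals of these pairs did not overlap. The ratio was 2.34 (1.58 to 3.54) for dabigatran to vehicle and 2.49 (1.80 to 3.49) for the combination to amiodarone, 2 comparisons that share no library. Amiodarone to vehicle was at 1.34 (0.863 to 2.10), within counting error, and the combination to dabigatran at 1.42 (1.08 to 1.88), beyond counting error and below 1.5-fold. The ratio of ratios was 1.06 (0.644 to 1.75).

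Its receptor and the cells it attracts followed another order. Cxcr5 had 7.04 FPKM in vehicle lung, 2.94 under amiodarone, 6.95 under dabigatran and 4.80 under both. It was called lower with amiodarone, at 0.417 (0.339 to 0.510), and higher in the combination than with amiodarone, at 1.64 (1.32 to 2.03). B cell markers summed to 184, 63.7, 157 and 113 FPKM, with all 7 called lower with amiodarone and 5 called higher from amiodarone to the combination. Cxcl13 thus had its lowest value in the vehicle library, where the B cell sum was highest. The vehicle and amiodarone values of Cxcl13 were within counting error, and Cxcr5 had 316 reads both with vehicle and with dabigatran. From amiodarone to the combination Cxcl13, Cxcr5 and the B cell sum were all higher. Of 8 genes known to act with Cxcl13 in lymphoid tissue 6 were tested, and with amiodarone Ltb and Lta, the lymphotoxin genes, were called lower, at 0.549 (0.473 to 0.635) and 0.255 (0.0845 to 0.648). With dabigatran Lta was called lower, at 0.403 (0.163 to 0.911), from 9 reads against 22, and no gene of the list was called from amiodarone to the combination. The listed markers of follicular dendritic cells and lymphoid stroma, which make Cxcl13 in follicles, summed to under 1 FPKM in every library over the 3 of 4 in the table. Fdcsp was the marker not in it. Clec4g gave at least 78.2% of the sum in every library, so the sum cannot show whether cells that make Cxcl13 were present. Tnfsf11 was at 0 with vehicle, and Madcam1 at 0 with dabigatran and the combination. Of the 9 macrophage and monocyte markers, Marco was the 1 called higher with dabigatran, and from amiodarone to the combination Marco was called higher and Ly6c2 lower. Lyz2 gave at least 94.3% of the sum of that list in every library, and the other 8 summed to 126, 296, 134 and 282 FPKM, high in both libraries with amiodarone. The part of these cells in the Cxcl13 values was not tested.

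Cxcl14, an epithelial and stromal chemokine, was the 1 ligand called lower with amiodarone. Cxcl14 (gene ID 57266, chr13:56288643-56296811) had 119 FPKM in vehicle lung, 75.4 under amiodarone, 114 under dabigatran and 82.5 under both, from 2480 to 3662 reads. Both libraries with amiodarone were below both without it, with no overlap of intervals. The ratio of amiodarone to vehicle was 0.633 (0.601 to 0.666), and that of the combination to dabigatran was 0.727 (0.691 to 0.764), beyond counting error and short of 1.5-fold. The combination was at 1.10 (1.04 to 1.16) times amiodarone. Airway epithelium markers had 3 of 5 genes called lower with amiodarone. Scgb1a1 gave at least 94.7% of their sum in every library. It had 124168, 73994, 99032 and 97786 FPKM, with a ratio of the combination to dabigatran of 0.993, unlike Cxcl14. The other 4 summed to 6202, 3897, 5509 and 4115 FPKM, lower in both libraries with amiodarone. The fibroblast markers had 1 of 6 called lower and summed to 397, 314, 452 and 348 FPKM, also lower in both libraries with amiodarone. Their part in the Cxcl14 values was not tested. Of 11541 genes with at least 100 reads in every library, the 3 with the profile most like that of Cxcl14 were Tiam1, Wnt4 and Tnfrsf19. The measure was the largest difference in log2 ratio to vehicle over the 3 treated libraries, which was 0.02, 0.03 and 0.04. Tiam1 had 9.25, 5.38, 8.49 and 6.12 FPKM in the 4 libraries, Wnt4 had 6.87, 4.31, 6.51 and 4.87, and Tnfrsf19 had 14.5, 9.29, 14.3 and 9.88. Cxcl14 was the 1 ligand with enough reads and a large enough difference for this search.

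Cxcl12 and Cxcl16 differed by less than 1.5-fold in every comparison. Cxcl12 (gene ID 20315, chr6:117168535-117181368), the ligand that holds leukocytes and progenitors in tissue, had 62.0 FPKM in vehicle lung, 73.2 under amiodarone, 79.1 under dabigatran and 75.2 under both. The vehicle library was lowest, and the ratios to it were 1.24 (1.19 to 1.29), 1.33 (1.27 to 1.38) and 1.22 (1.17 to 1.27). Its receptor Cxcr4 had between 36.1 and 42.0 FPKM and was called in no comparison. The scavenging receptor Ackr3 had 17.6, 27.0, 21.6 and 22.3 FPKM and was called higher with amiodarone, at 1.53 (1.38 to 1.69). Endothelial markers, a source of Cxcl12 along with fibroblasts, summed to 1085, 1167, 1268 and 1020 FPKM, with none of 6 called with amiodarone. Cxcl16 (gene ID 66102, chr11:70454389-70459984) had 48.4 FPKM in vehicle lung, 66.7 under amiodarone, 46.3 under dabigatran and 51.7 under both, and the amiodarone library was highest without overlap. The ratio of amiodarone to vehicle was 1.43 (1.35 to 1.52) and that of the combination to amiodarone 0.773 (0.729 to 0.820). Its estimated reads were not whole numbers, so some reads that also matched other features were divided by estimation. Macrophage and monocyte markers, the cells known for Cxcl16, had 7 of 9 genes called higher with amiodarone, with the sums given above. Its receptor Cxcr6 had 1.46, 1.10, 1.84 and 1.09 FPKM and was not called with amiodarone, at 0.756 (0.479 to 1.18). Of the enzymes that cut chemokines or release Cxcl16 from the membrane, Adam10, Adam17 and Dpp4 were not called in any comparison, while Mmp8, Mmp9 and Mmp12 were called higher with amiodarone, at 6.16, 2.19 and 5.05, and Mmp8 is also on the neutrophil list.

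Set over all 9 ligands, the ratio of ratios for amiodarone with against without dabigatran lay beyond counting error in 6, all among the 8 tested, where it did in 33.1% of all tested genes. It was below 1, as for 14.5% of all tested genes, for Cxcl9, Cxcl10, Cxcl12, Cxcl15 and Cxcl16, where it ran from 0.157 for Cxcl9 to 0.938 (0.914 to 0.962) for Cxcl15, and above 1, as for 18.7%, for Cxcl14, at 1.15 (1.07 to 1.23). For Cxcl16 it was 0.795 (0.727 to 0.868) and for Cxcl12 0.744 (0.704 to 0.786). For Cxcl1, Cxcl2 and Cxcl13 the interval held 1. Counting error falls with the number of reads, so that small differences in abundant genes such as Cxcl15 pass it, while Cxcl1, at 0.476 (0.141 to 1.61), did not.

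**Figure D4:**
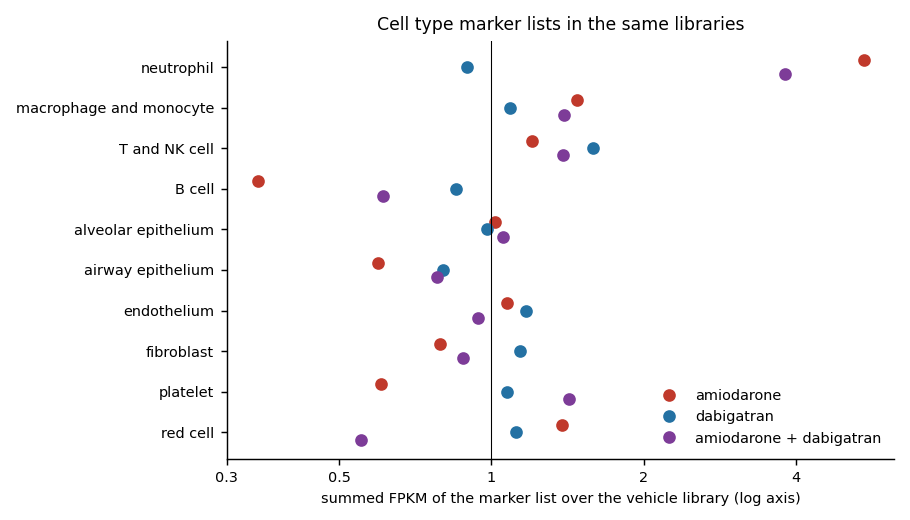
Summed FPKM of 10 cell type marker lists in each treated library over the vehicle library, on a log axis, with 1 point per library and no error bars. The neutrophil list lies at 5.45 with amiodarone and 3.81 with the combination, the B cell list at 0.346 and 0.611, and alveolar epithelium close to 1 in all 3 libraries, while the red cell list was at 1.38 with amiodarone and 0.553 with the combination.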

How the data were processed

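Poly(A)+ RNA of mouse lung was sequenced with DNBseq, in 1 library per treatment group. Per the labels the authors used HISAT, Bowtie2 and RSEM with GRCm38.p6. The deposited table holds for each library an estimated count of reads, which need not be whole, and a normalized value. The authors' values were read as FPKM, since reads per unit of value differed between amiodarone and vehicle by the factor of their total reads, 1.07. The 8 further columns, averages of pairs of libraries, were left out. Whether counting used strand is not given in the sources used here.

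Libraries were assigned to groups by their labels. Ratios of reads per total and exact Clopper-Pearson 95% intervals, from reads rounded to whole numbers, were computed with Python 3.11.15 and scipy 1.17.1, and exact Poisson intervals for levels. Intervals of ratios of ratios are normal approximations from the counts. For a count of 0 a one-sided limit of 3 reads was used. Sequenced fragments are not independent molecules, so intervals cover counting error only. Single libraries allow no test of treatment, and p-values were therefore not computed. The steps were tested on simulated data. Alternatives were no minimum or a mean of 50 reads, median-ratio or edgeR 4.0.16 TMM scaling, FPKM ratios, other folds and pseudocounts of 1 and 0.1.

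All 9 ligands were named by rule, with the listed receptors, pathway genes and markers and, for ligands with at least 100 reads in every library and a 1.5-fold ratio to vehicle, the 3 most similar profiles. The ligands and lists were chosen with earlier results of these data known. Coordinates and promoters came from RefSeq for GRCm38.p6. Part of the list of interferon signalling genes is not reported here.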

Additional observations from a re-analysis of the deposited data

Results flagged for a closer look

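For 4 of the 9 ligands the ratio of amiodarone to vehicle was above 1 while that of amiodarone + dabigatran to dabigatran was below 1. Of all tested genes 14.9% had this pattern and 35.8% had ratios on opposite sides of 1 in either order. With 1 library in each group the difference was not tested. For Cxcl1 the ratios were 1.97 and 0.939, from 9 to 19 reads. For Cxcl10 they were 4.18 and 0.991, and with median-ratio or TMM scaling the second became 1.004 and 1.006. For Cxcl12 they were 1.24 and 0.922, and both were beyond counting error. For Cxcl15 they were 1.05 and 0.987, and the second became 1.0004 and 1.002 with these scalings.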

How the results depend on the processing

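The number of calls stayed within 1.5 times with no minimum of reads, with median-ratio or TMM scaling, with FPKM ratios and at 2-fold, where Cxcl14 was no longer called for amiodarone against vehicle. With a mean of at least 50 reads, which leaves out Cxcl9 and Cxcl10, 1 ligand was called for amiodarone against vehicle and 1 for the combination against amiodarone, beside 11% and 3.48% of all genes. Counting every interval that excluded 1, whatever the fold, gave 6 ligands for amiodarone against vehicle, 3 for dabigatran against vehicle, 5 for the combination against amiodarone and 4 for the combination against dabigatran, where 46.6%, 26.2%, 33% and 40.4% of all tested genes passed. Dropping the interval gave 3 for dabigatran against vehicle, beside 5.12% of all tested genes. Of 36 ratios of single ligands under each of 3 alternatives, 34 stayed within their counting intervals each time, and the others were of Cxcl12 or Cxcl15. For Cxcl12 the FPKM ratio of amiodarone to vehicle was 1.18 and the ratio of ratios 0.806, and the cause was not tested. Cxcl12 and Cxcl15 in the combination against amiodarone changed sides of 1, at 1.03 with FPKM and 0.981 with median-ratio scaling. The median over the ligands for the combination against amiodarone ran from -0.37 to 0.01 on the log2 scale over the alternatives. No replicate can be left out, and no paired analysis was possible because each group holds 1 library. Depth limits Cxcl1, Cxcl2 and Cxcl9, with fewer than 10 reads in at least 1 library.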
